A study of Mus musculus with 4 samples.

Results

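The strongest peaks of IGF2BP2 RNA immunoprecipitation in mouse BMDMs are described here. BMDMs are macrophages differentiated in culture out of bone marrow. A peak is a stretch of the genome where sequenced tags pile up, and a strong peak is one with 50 or more tags outside the mitochondrial chromosome. Of 15511 deposited peaks in IGF2BP2_IP replicate 1, 259 were strong, and of 22570 in IGF2BP2_IP replicate 2, 699 were strong, which gives 958 of 38081 in all. The peaks were chosen by their tag counts in these same libraries, so their tags, and the lengths and heights that go with tags, are given as a description with no test.

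The series had 2 groups, IGF2BP2_IP and input, each with 2 libraries from BMDMs. No genotype, strain, age or treatment of the cells is given in the labels. The input libraries were not analysed here. Whether each replicate is its own culture or mouse is not labelled. The antibody is uncertain: IGF2BP2 antibody is written among the sample characteristics, but a Flag antibody in the protocol. Flag is a peptide tag that a cell has only on an engineered protein. With no input or expression value, RNA that was bound and RNA that was abundant cannot be told apart in any result below.

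IGF2BP2 is a cytoplasmic RNA-binding protein of the family first known for binding the mRNA of insulin-like growth factor 2 and of beta-actin. The family is described as reading N6-methyladenosine (m6A), a base modification of mRNA, with a preference for the sequence GGAC, and as protecting bound mRNAs from decay. The title of the series names TSC1, an inhibitor of mTORC1 signalling, and PPARγ, a lipid-sensing nuclear receptor active in alternatively activated macrophages.

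The sequences of 6 strong peaks are shown because each had both edges exactly on the edges of 1 coding exon, so that the peak is the exon. They are printed 5′ to 3′ on the strand of the gene from GENCODE release 21 transcripts (GRCm38), with GGAC in capitals. Spp1 encodes osteopontin, Ctss the lysosomal protease cathepsin S, Gpnmb a membrane glycoprotein of lysosome-rich macrophages, Lamp1 a lysosomal membrane protein, Mrc1 the mannose receptor CD206, and Atp6v0a1 a subunit of the proton pump that acidifies lysosomes.
Spp1 exon 2: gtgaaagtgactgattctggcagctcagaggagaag
Ctss exon 7: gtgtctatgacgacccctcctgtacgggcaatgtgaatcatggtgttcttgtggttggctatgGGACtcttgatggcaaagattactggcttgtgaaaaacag
Gpnmb exon 10: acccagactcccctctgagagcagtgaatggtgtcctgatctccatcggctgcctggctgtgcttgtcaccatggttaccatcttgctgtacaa
Lamp1 exon 6: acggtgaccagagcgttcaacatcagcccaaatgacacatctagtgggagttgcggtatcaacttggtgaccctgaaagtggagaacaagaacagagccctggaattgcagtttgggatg
Mrc1 exon 9: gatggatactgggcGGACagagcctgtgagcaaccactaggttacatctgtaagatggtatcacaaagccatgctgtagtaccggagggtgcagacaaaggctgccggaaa
Atp6v0a1 exon 13: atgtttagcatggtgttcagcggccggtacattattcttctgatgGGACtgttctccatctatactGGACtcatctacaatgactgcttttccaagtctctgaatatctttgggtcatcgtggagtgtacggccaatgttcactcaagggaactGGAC

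The Spp1 exon 2 peak (chr5:104436541-104436576, plus strand) was the shortest strong peak of each library, at 36 bases, and lies wholly in coding sequence. It had 70 tags in replicate 1 and 99 in replicate 2, with identical edges in both.

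The Ctss exon 7 peak (chr3:95550053-95550155, plus strand) had 171 tags in replicate 2 against 132 in a longer peak of replicate 1 that shared its left edge. The Gpnmb exon 10 peak (chr6:49055621-49055714, plus strand) had 187 tags in replicate 2, of which 156 lay over 1 position, and no GGAC. In replicate 1 the exon lay inside a peak with 129 tags.

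The Lamp1 exon 6 peak (chr8:13172541-13172660, plus strand) had 98 tags in replicate 1 and 136 in a longer peak of replicate 2. The Mrc1 exon 9 peak (chr2:14271264-14271374, plus strand) had 77 tags in replicate 1 and lay inside a peak with 145 tags in replicate 2. The Atp6v0a1 exon 13 peak (chr11:101038690-101038847, plus strand) had 121 tags and 3 GGAC in replicate 1 and no overlapping peak in replicate 2, so an exon-shaped strong peak in 1 library was not always matched in the other.

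Strong peaks over small structured RNA genes included some with every tag over 1 position. The 4 RNAs printed are examples of peaks with all or nearly all tags stacked in at least 1 library. Small nucleolar RNAs (snoRNAs) guide chemical changes of ribosomal RNA, and 7SK RNA (Rn7sk) holds the elongation factor P-TEFb inactive. Capitals mark the ACA box in the H/ACA snoRNAs Snora23 and Gm26165, the TGATGA and CTGA boxes in the C/D snoRNA Snord15b, and GGAC in the stretch of Rn7sk under the peak.
Snora23: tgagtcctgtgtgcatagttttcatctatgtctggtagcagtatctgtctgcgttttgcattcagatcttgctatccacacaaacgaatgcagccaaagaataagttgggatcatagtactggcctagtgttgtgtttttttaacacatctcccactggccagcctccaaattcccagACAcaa
Gm26165: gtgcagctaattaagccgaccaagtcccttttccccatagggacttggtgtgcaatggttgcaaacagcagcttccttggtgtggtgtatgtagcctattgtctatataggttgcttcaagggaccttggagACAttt
Snord15b: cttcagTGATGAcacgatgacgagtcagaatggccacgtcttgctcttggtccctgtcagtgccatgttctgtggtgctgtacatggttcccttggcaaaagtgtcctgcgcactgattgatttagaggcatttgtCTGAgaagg
Rn7sk, bases under the peak: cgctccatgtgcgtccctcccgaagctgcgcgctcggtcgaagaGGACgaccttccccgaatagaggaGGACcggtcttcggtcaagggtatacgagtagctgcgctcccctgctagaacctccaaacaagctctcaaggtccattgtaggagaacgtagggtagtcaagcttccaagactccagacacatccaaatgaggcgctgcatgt

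Snora23 (chr7:110046364-110046547, plus strand) lies in intron 13 of Ipo7, an importer of proteins into the nucleus. Its strong peak had 66 tags in replicate 1 and 58 in replicate 2, all of them over the summit, and covered 178 of the gene's 184 bases in replicate 1. Gm26165 (chr2:144261589-144261726, minus strand) lies in intron 3 of Snx5, a sorting nexin, and had 58 tags in replicate 1, 57 of them stacked. In replicate 2 it had 107, of which 70 were stacked.

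Snord15b (chr7:99479563-99479707, minus strand) lies in intron 5 of Rps3, a ribosomal protein gene. It had 94 tags in replicate 2, all stacked, and no overlapping peak in replicate 1. The Rn7sk peak (chr9:78175321-78175531, minus strand) had 61 tags in replicate 1 and 70 in replicate 2, all stacked in both, and covered 211 bases of the gene in replicate 1. Vaultrc5, a vault RNA, was alike, with 112 tags in replicate 1, 111 of them stacked, and 119 in replicate 2, all stacked.

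In all, 11 strong peaks of replicate 1 and 14 of replicate 2 overlapped an annotated small RNA gene, counting the ribosomal RNA CT010467.1 on chromosome 17, which 2 of them in each library covered. That is 4.25% of strong peaks in replicate 1 (exact binomial 95% interval 2.14 to 7.47%) and 2.0% in replicate 2 (1.10 to 3.34%), against 0.374% and 0.357% of the peaks under 50 tags. These peaks had a median length of 331 bases in replicate 1 and 314.5 in replicate 2. Strong peaks are longer than the rest, and the part of length in these shares was not tested. Not all of these peaks had their tags on the small RNA: the Mrc1 peak that covers Mir511 (52 tags in replicate 1, 78 in replicate 2) had its summit in exon 6 of Mrc1, and the Eef2 peak that covers Snord37 (50 tags in replicate 1) had its summit in exon 5 of Eef2.

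Strong peaks held 28495 of the 171430 tags outside the mitochondrial chromosome in replicate 1, or 16.6%, and 70395 of 308880 in replicate 2, or 22.8%, with 1.67% and 3.10% of the peaks. Tags in peaks are not a library size, and the depth of the libraries is not given in the sources used here. The median strong peak had 68 tags in replicate 1 (25th to 75th percentile 57 to 96.5) and 71 in replicate 2 (57 to 94). The number with 100 or more tags was 60 and 157. At the threshold itself, 10 peaks of replicate 1 and 24 of replicate 2 had exactly 50 tags, and 11 and 33 had 49. The files hold no molecular identifiers, so intervals here cover counting error only.

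Strong peaks were longer than the rest and their tags were more spread out. Their median length was 620 bases in replicate 1 (36 to 2758) and 679 in replicate 2 (36 to 4115), against 193 and 210 bases under 50 tags. The largest number of tags over 1 position, the maximum height, was a median 48% of the peak's tags in replicate 1 and 43.7% in replicate 2, against 100% in both libraries under 50 tags. The longest was a 4115-base peak of Atp6v0a1 with 542 tags in replicate 2, only 76 of them over 1 position. Length and stacking ran against each other, as the plot of length against stacking shows.

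**Figure D1:**
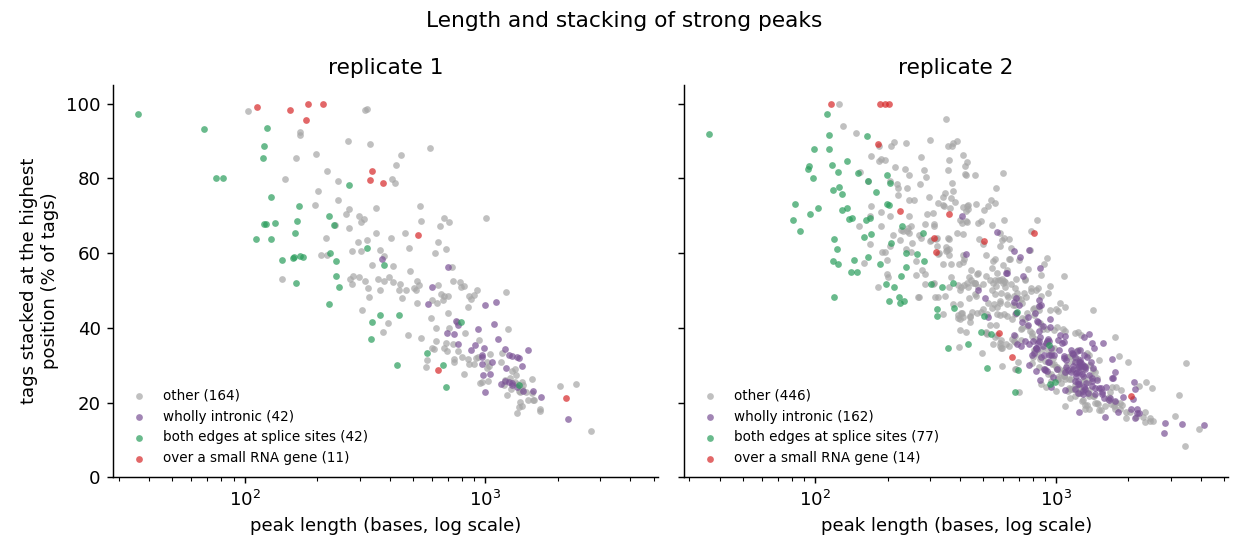
Share of a strong peak's tags that lie over its highest position (vertical axis, %) against peak length (horizontal axis, bases, log scale), one point per strong peak, by library. Some peaks over small RNA genes reach 100%, peaks with both edges at splice sites are short (median 171.5 bases in replicate 1 and 171 in replicate 2), and wholly intronic peaks are long (medians 1075.5 and 1161.5 bases).

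The strong peaks were sorted by how they sit on the exons of the gene. In replicate 1, 42 of 259 (16.2%) and in replicate 2, 77 of 699 (11.0%) had both edges exactly at splice sites. Splice sites of any annotated transcript of the gene were counted, and 34 and 60 of these peaks lay wholly in 1 exon. Among sense peaks this is 17.2% (12.7 to 22.5%) and 11.4% (9.09 to 14%) of strong peaks, against 16.2% and 16.3% under 50 tags. The interval holds the value of the other peaks in replicate 1 and lies under it in replicate 2. Such intervals treat peaks of 1 gene as separate, and Lrp1 alone gave 7 of the 42 and 12 of the 77. Strong peaks are also longer than the rest, and the part of length in this share was not tested. No difference is drawn from it. Another 110 (42.5%) and 323 (46.2%) held exon and intron bases in the same peak. Wholly intronic peaks off small RNA genes numbered 42 (16.2%) and 162 (23.2%) and exonic peaks with other edges 40 (15.4%) and 101 (14.4%). The classes were defined after the values were seen.

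Most strong peaks had their summit in an exon, also among those that lie mainly in introns and hold coding sequence. By the region that covers most of the peak, 39.8% of strong peaks in replicate 1 (33.8 to 46.0%) and 49.6% in replicate 2 (45.9 to 53.4%) were intronic, against 32.8% and 34.9% under 50 tags. Coding sequence took 38.6% (32.6 to 44.8%) and 31.6% (28.2 to 35.2%), against 40.8% and 38.6%, and the 3′ UTR 12.7% and 12.6%, against 10.8% and 10.1%.

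The summit is the position of greatest height. It lay in an annotated exon for 116 of the 119 strong peaks of replicate 1 that held both coding sequence and intron (97.5%), and for 325 of the 335 of replicate 2 (97.0%). Under 50 tags the same shares were 95.7% and 96.4%, within the intervals of the strong peaks (92.8 to 99.5% and 94.6 to 98.6%). Even where the intron was the larger part, 53 of 56 and 161 of 171 had the summit in an exon. Over all strong peaks the summit lay in an exon in 77.6% (72.0 to 82.5%) and 73.0% (69.5 to 76.2%), against 62.8% and 61.7% of the peaks under 50 tags. Peaks that held coding sequence and intron together made up 45.9% and 47.9% of strong peaks and 15.9% and 17.8% of the rest. Strong peaks are longer, and a longer peak reaches past an exon more often; the part of length in these shares was not tested.

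**Figure D2:**
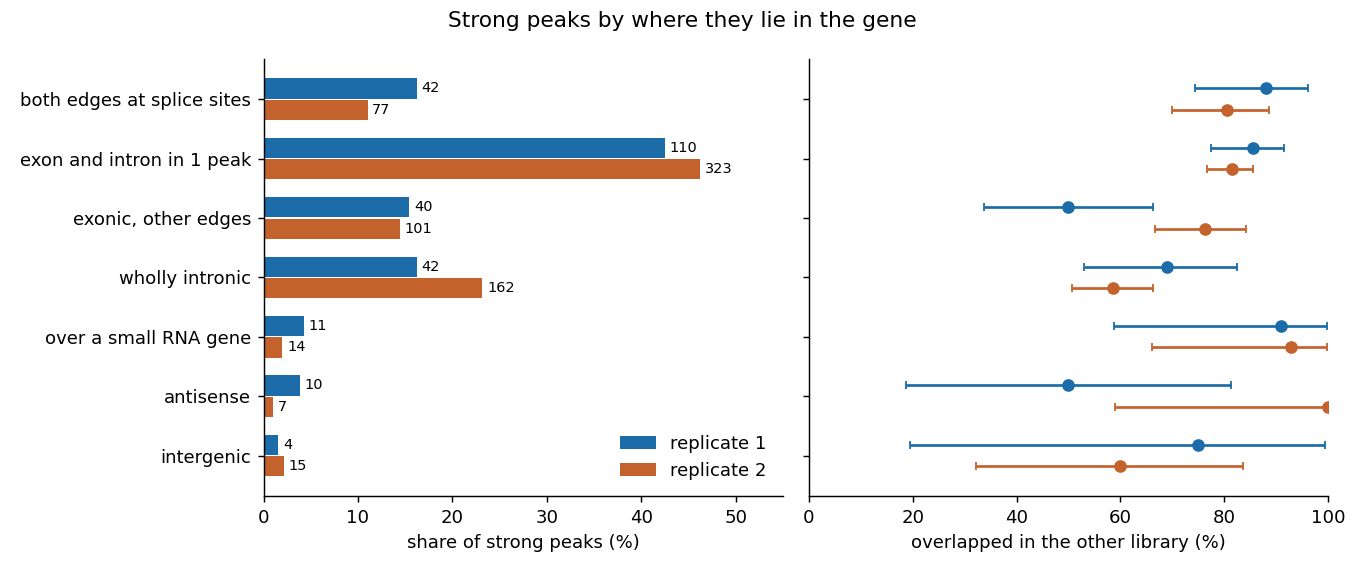
Left, share of each library's strong peaks in 7 classes by position in the gene (%), with the number of peaks beside each bar; right, share of each class overlapped by any peak of the other library (%), with exact binomial 95% intervals. Peaks with both edges at splice sites were overlapped in 88.1% and 80.5%, wholly intronic peaks in 69.0% and 58.6%.

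A strong peak was counted as found in the other library where any peak there overlapped it by at least 1 base on the same strand. This was so for 198 of 259 strong peaks of replicate 1, or 76.4% (70.8 to 81.5%), beside a background of 34.8% over all its peaks. In replicate 2 it was so for 526 of 699, or 75.3% (71.9 to 78.4%), beside 23.6%. By length, the share in replicate 1 was 82.4% under 200 bases, 84.7% from there to 400, 81.3% to 800, 62.5% to 1200 and 66.7% at 1200 or more. In replicate 2 it was 81.4%, 85.8%, 76.5%, 65.6% and 71.5%. The intervals of the shortest and the longest bin overlap in both libraries. They are 65.5 to 93.2% and 52.1 to 79.2% in replicate 1, and 70.3 to 89.7% and 63.6 to 78.6% in replicate 2. In replicate 2 the interval from 200 to 400 bases (78.5 to 91.4%) lies above that from 800 to 1200 (57.4 to 73.1%). In replicate 1 the intervals of these bins overlap (73.0 to 92.8% and 45.8 to 77.3%). Peaks under 50 tags in the same length bins were overlapped in 31.5%, 32.9%, 55.3%, 69.4% and 33.3% (3 peaks) in replicate 1. In replicate 2 they were overlapped in 20.6%, 19.3%, 34.3%, 50% and 50% (16 peaks). From 800 to 1200 bases in replicate 1 the strong peaks thus had the lower share (62.5% against 69.4%), with overlapping intervals (45.8 to 77.3% and 59.3 to 78.3%). The part of length in the overlap was not tested.

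Overlapping peaks mostly shared their summit region, strong or not. Among overlapped strong peaks the median distance between the summits was 23.5 bases in replicate 1 and 30 in replicate 2, and in 84.3% and 83.3% each summit lay inside the other peak. Peaks under 50 tags gave similar values: their median distance was 30 bases in replicate 1 and 29 in replicate 2, and the shares were 84.2% and 85.0%. With the rule that the summit lie inside a peak of the other library, the shares were 72.6% and 69.0%, beside backgrounds of 32.7% and 21.4%. Exact edges were shared less: 27.8% and 27.4% of overlapped strong peaks had 1 or both edges identical to the partner's, against 40.7% and 42.1% under 50 tags.

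The share overlapped was higher in each bin of more tags up to 50 to 74 tags in replicate 1 and up to 75 to 99 in replicate 2. In replicate 1 it was 11.1% at 3 to 5 tags, 55% at 10 to 19 and 76.6% at 35 to 49. From 50 tags it was 79.9% at 50 to 74, 71.1% at 75 to 99, 75% at 100 or more and under 200, and 62.5% (35.4 to 84.8%, 16 peaks) at 200 or more. In replicate 2 the bins under 50 tags gave 5.51%, 30.8% and 61.5%, and those from 50 tags 73.2%, 79.0%, 78.6% and 67.7% (48.6 to 83.3%, 31 peaks). The intervals of the bins from 50 tags upwards overlap within each library, so an order among them was not detectable with these numbers.

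**Figure D3:**
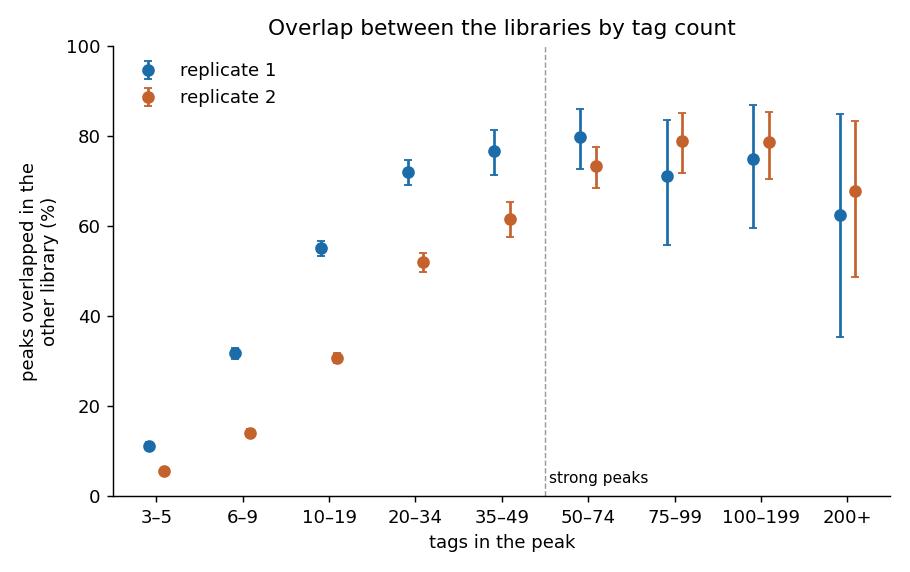
Share of peaks overlapped by any peak of the other library (vertical axis, %) by tags in the peak (horizontal axis), for each library, with exact binomial 95% intervals; strong peaks lie right of the dashed line. The share stands at 11.1% and 5.51% for 3 to 5 tags and at 79.9% and 73.2% for 50 to 74 tags.

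The tags of a strong peak and of its strongest overlapping peak are compared on the log2 scale. Replicate 2 had more tags in peaks than replicate 1 by a log2 ratio of 0.85 over all peaks outside the mitochondrial chromosome. At the 198 overlapped strong peaks of replicate 1 the median log2 ratio of replicate 2 over replicate 1 was 0.45, from -4.87 to 3.16, and 40 of the 198 had fewer tags in replicate 2. At the 526 of replicate 2 the median log2 ratio of replicate 1 over replicate 2 was -0.89. Each set was chosen for high tags in its own library, which lowers the partner's tags beside it, so neither median is a difference between the libraries.

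**Figure D4:**
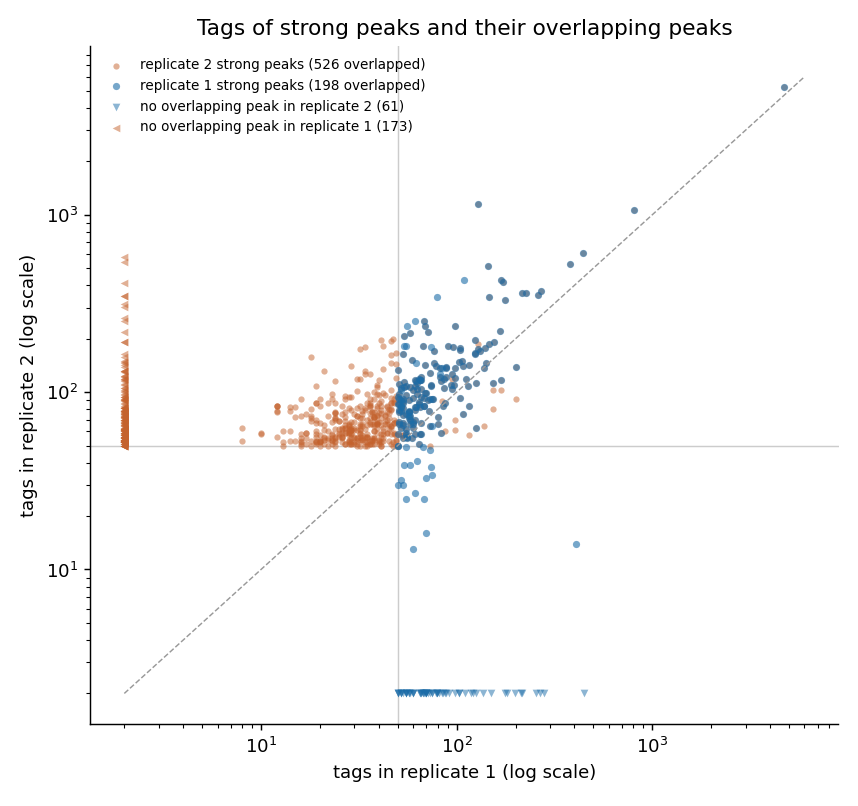
Tags in replicate 1 (horizontal axis) and replicate 2 (vertical axis) of each strong peak and its strongest overlapping peak, both on log scales, with the line of equal tags dashed and the threshold of 50 tags in grey. Triangles at the axis edges are the 61 and 173 strong peaks with no overlapping peak, placed at an arbitrary position, and the point at the upper right is the ribosomal RNA locus with 4702 and 5256 tags.

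The largest ratio in each direction came from peaks that met only in part. The Atp6v0a1 peak over its last exon had 409 tags in replicate 1 and met only a 14-tag peak in replicate 2 over 206 of its 2034 bases (log2 ratio -4.87). The Gpnmb peak over exon 10 had 129 tags in replicate 1 and met a 1153-tag peak in replicate 2 (3.16). The 1153-tag peak was 3485 bases long, had its summit in exon 11 and overlapped the exon 10 peak by 12 bases. The 129-tag peak also held the 187-tag exon 10 peak of replicate 2, but the ratio uses the overlapping peak with the most tags. In the 3′ UTR, Lat2, an adaptor protein of immune cells, had 60 and 13 tags, and Lasp1, an actin-binding protein, 70 and 16, in replicates 1 and 2.

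Without any overlapping peak in the other library were 61 strong peaks of replicate 1 and 173 of replicate 2. The gene of the peak was still present in the other list in 52 of 55 and 161 of 167 sense peaks, where a sense peak is one on the strand of a named gene. Counted by gene, 3737 of 4825 protein-coding genes with any peak in replicate 1 had one in replicate 2, and 3737 of 5857 the other way. In 31 of 61 and 86 of 173 a peak on the same strand lay within 1000 bases.

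Some of those with the most tags are named next. The highest were peaks of Plec (578 tags) and Atp6v0a1 (542 tags) in replicate 2. Replicate 1 peaks of 68 and 66 tags lay 34 and 22 bases from them. Mpeg1, the macrophage pore-forming protein perforin-2, had 1 peak of 448 tags and 2758 bases in replicate 1, and no peak in replicate 2. Neat1, the long non-coding RNA that builds nuclear paraspeckles, had 1 peak of 415 tags and 3112 bases in replicate 2, and no peak in replicate 1. Gpnmb exon 1 held 267 tags in replicate 1, 235 of them stacked, and the nearest replicate 2 peak lay 10111 bases away. Fth1, ferritin heavy chain, had 214 tags in its last exon in replicate 1 only, beside a peak in exon 2 with 124 tags in replicate 1 and 163 in replicate 2. In replicate 2, Ctsb (cathepsin B) held 315 tags at exon 4, 213 of them stacked, with no overlapping peak in replicate 1. Antisense to Gm20388 on chromosome 8, replicate 1 had 4 strong peaks, of 281, 217, 79 and 70 tags, that met no peak in replicate 2. The cause of these absences was not tested.

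The strong peaks fell in few genes. Sense strong peaks lay in 112 genes in replicate 1 and 249 in replicate 2, of which 96 genes were in both, 16 in replicate 1 only and 153 in replicate 2 only. The shared genes were 85.7% of those of replicate 1 and 38.6% of those of replicate 2. Of the genes with a strong peak in 1 library only, 13 of 16 and 148 of 153 had some peak in the other. Among all annotated protein-coding genes, 3737 of the 4825 with any peak in replicate 1 had one in replicate 2. The other way it was 3737 of 5857, so the 13 of 16 of replicate 1 is near the share over all genes. Genes with 4 or more strong peaks numbered 17 and 53, and they held 115 of 244 and 384 of 676 sense strong peaks, so strong peaks of 1 gene are not separate observations.

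**Figure D5:**
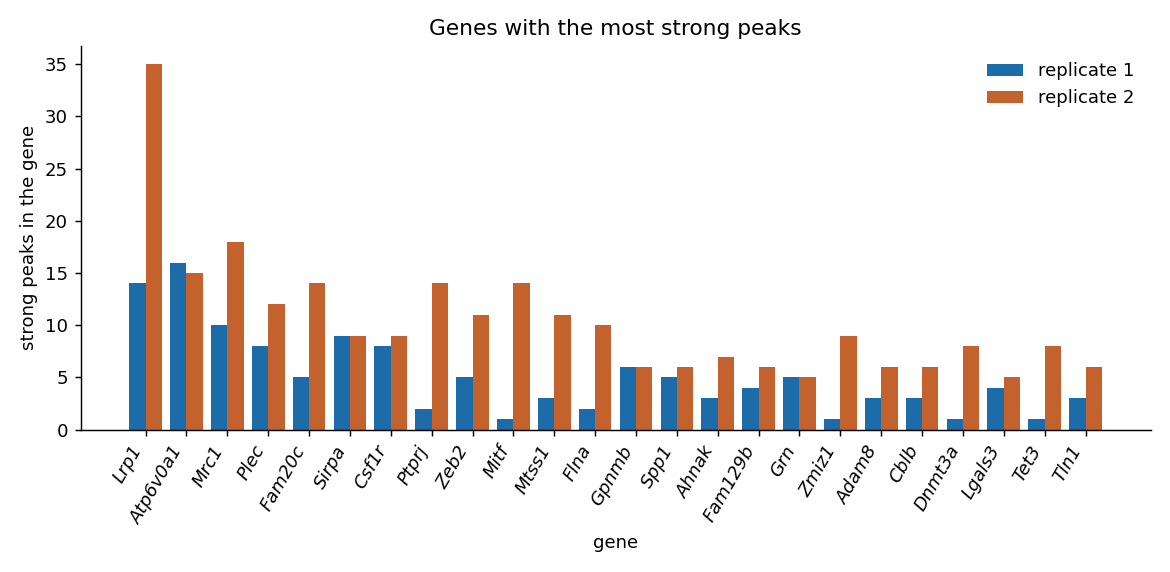
Number of sense strong peaks in each of the 24 genes with the most over both libraries (vertical axis), by gene (horizontal axis), with a bar for each library. Lrp1 had 14 and 35, Atp6v0a1 16 and 15, and Mitf 1 and 14.

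Lrp1, a giant endocytic receptor with 89 exons on chromosome 10, had 14 strong peaks in replicate 1 and 35 in replicate 2. They had 50 to 91 tags in replicate 1 and 50 to 132 in replicate 2, so that the gene was covered by many peaks of similar tags and by none of the very high ones. All 14 and all 35 had the summit in an exon, 7 and 12 had both edges at splice sites, and 12 of 14 and 35 of 35 were overlapped in the other library. Strong peaks were mainly in coding sequence in 13 of 14 and 24 of 35.

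Mrc1, with 30 exons on chromosome 2, had 10 strong peaks in replicate 1 (52 to 108 tags) and 18 in replicate 2 (51 to 148 tags), and 9 and 16 had the summit in an exon. At exon 13 it had 103 and 148 tags, at exon 8 108 and 141, and at exon 2 82 and 121. Exon 27 had a 124-tag peak in replicate 2 and no overlapping peak in replicate 1. Csf1r, the receptor of the macrophage growth factor CSF1, had 8 and 9 strong peaks, all with the summit in an exon. Its highest, at exon 12, had 215 and 363 tags.

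Sirpa, an inhibitory receptor that restrains phagocytosis, had 9 strong peaks in each library, of which 5 in replicate 1 and 4 in replicate 2 were wholly in intron 1. Only 3 of its 9 in replicate 1 and 6 of 9 in replicate 2 were overlapped. Gpnmb had 6 in each, with 975 tags in replicate 1 and 2094 in replicate 2, all with the summit in an exon. At exon 6 they had 261 and 354 tags, and at exon 5 124 and 166. A further 1 strong peak of replicate 1 and 3 of replicate 2 lay inside the annotated span of Gpnmb although the authors' table calls them intergenic.

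The lysosome list was chosen with these data in view. Of 42 genes on the lysosome list, 12 had a strong peak in replicate 1, 17 in replicate 2 and 12 in both, and 36 had some peak in both. Over all 21951 annotated protein-coding genes, 92 (0.419%) had a strong peak in both libraries, or 2.46% of the 3737 with any peak in both. The list was not tested, and how high its genes are expressed in these cells is not known from the files.

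Atp6v0a1 had 16 strong peaks with 1835 tags in replicate 1 and 15 with 2660 in replicate 2, and strong peaks covered 23.0% and 35.3% of the gene's span, introns included. In replicate 2 all of the sense peaks that the authors assigned to it were strong. Psap, the precursor of the saposins that help break down sphingolipids, had 445 and 606 tags in a peak with its summit in exon 7, and 144 and 513 at exons 3 and 2. In replicate 2 it had a further 348-tag peak at exon 1 with no overlapping peak in replicate 1.

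Ctsd (cathepsin D) had 4 strong peaks in each library, the highest at exon 5 with 269 and 370 tags, and all 8 were overlapped. Grn, progranulin, had 5 in each, with 512 and 851 tags, all overlapped and all with the summit in an exon. In strong peaks, Lamp1 had 266 tags in 2 strong peaks and 420 in 4, Atp6v1b2, another proton pump subunit, 272 and 394 in 4 each, and Ctss 210 in 2 and 442 in 3. Ctsz and Ctsl, further cathepsins, had strong peaks in replicate 2 only, with 279 and 183 tags; Ctsz had no peak in replicate 1, and Ctsl had 2 weaker ones.

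The macrophage list had 8 of 36 matched genes strong in both libraries and 27 with some peak in both. Spp1 had 5 and 6 strong peaks with 356 and 507 tags, among them 98 and 120 tags over its last exon with identical edges, 70 and 99 at exon 2 and 55 and 96 at exon 3. Lgals3, galectin-3, had 4 and 5 with 392 and 590 tags. Of 10 fixed macrophage markers, Mrc1, Csf1r and Adgre1 were strong in both libraries, Mpeg1 in replicate 1 and Cd68 in replicate 2, while Lyz2 and Cd14 had no peak in either. No marker of neutrophils, T cells, B cells, fibroblasts, dendritic cells or erythroid cells had a strong peak in either library (0 of 28 markers). Of these 28, 1 neutrophil, 1 T cell and 1 fibroblast marker had a weaker peak in replicate 1, and 1 neutrophil marker in replicate 2. Over all 21951 annotated protein-coding genes, 107 had a strong peak in replicate 1 and 237 in replicate 2. At so low a share a count of 0 among 28 genes is no measure of the purity of the cells.

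Cytoskeletal and adhesion genes had 11 of 41 strong in both libraries and 36 with some peak in both. Plec, plectin, had 8 and 12 strong peaks. Its 578-tag peak of replicate 2 lay in exon 32, was 3424 bases long with 48 tags over 1 position, and met no peak of replicate 1. Flna, filamin A, had 2 and 10 strong peaks, with 176 and 331 tags at the highest pair, whose summits lay in exons 12 and 13. Actb, beta-actin, had 3 in each library, with 330 and 423 tags, and all 6 were overlapped.

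Smaller groups had fewer genes strong in both libraries. For lipid and iron handling, 4 of 24 genes were strong in both: Lpl (lipoprotein lipase; 114 and 916 tags in strong peaks), Fth1 (338 and 163), Apoe (88 and 121) and Tfrc (transferrin receptor; 50 and 84). The Tfrc peaks lay at different places, in exon 10 and in the last exon. Of 17 glycolysis genes, 2 were: Hk3 (118 and 239) and Pkm (67 and 57). The Pkm peaks did not overlap each other, with summits in exons 11 and 9. Of 26 genes of translation and protein folding, 2 were, Canx (50 and 323) and Eif4g1 (50 and 58), although 20 had some peak in both. Counted by library, 5 of these 26 were strong in replicate 1 and 8 in replicate 2. Strong in either library were 11 of the 26, beside 17 of 42 on the lysosome list. The alternative activation and PPARG list had 2 of 21 strong in both, Mrc1 and Lpl, and the classical activation list 1 of 26, Marcks (97 and 110 tags), with 14 and 8 genes holding some peak in both. On the alternative activation list, Abcg1, Arg1 and Cd36 were strong in replicate 2 only. Abcg1 is also on the lipid and iron list.

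The genes named in the title had no strong peak. The highest peak of Tsc1 had 6 tags in replicate 1 and 13 in replicate 2, and that of Pparg 13 and 22. No gene of the TSC and mTORC1 list (0 of 25) had a strong peak in either library, and 15 had some peak in both. Over all annotated protein-coding genes 0.419% were strong in both, or 2.46% of those with any peak in both. A count of 0 in a list of this size is near that share, so it is no result about the list. Of 20 genes of the m6A machinery and readers, 1 was strong in both, the RNA-binding protein Hnrnpa2b1 (60 and 172 tags), and 10 had some peak in both. Prrc2a was strong in replicate 2 only (55 tags). Igf2bp2 itself had no peak in replicate 1 and a highest peak of 9 tags in replicate 2. Of 20 genes on a list of reported IGF2BP targets, Actb was strong in both libraries, Cd44 and Pabpc1 were in replicate 2 only, and 10 had some peak in both.

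Wholly intronic strong peaks gathered in few genes. With those over small RNA genes they numbered 45 in replicate 1 and 165 in replicate 2, in 21 and 60 genes, of which 19 were in both. Mitf, a transcription factor of lysosomal and macrophage genes, had 1 and 14, every one with its summit in intron 1, from 52 to 181 tags in replicate 2. Of those 14, 10 were overlapped in replicate 1, where all but 1 of the gene's 26 peaks fell under 50 tags. Ptprj, a receptor phosphatase, had 2 and 13, all in intron 1, of which 1 and 6 were overlapped.

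Zeb2, a transcription factor needed for macrophage identity, had 5 and 10 wholly intronic strong peaks, none in intron 1, with 4 and 7 overlapped. Fam20c, a kinase of secreted proteins, had 4 and 8 (4 and 3 overlapped), Mtss1, an actin regulator at membranes, 3 and 9 (2 and 4), and Bcar3 0 and 7 (6 overlapped). The summit was in intron 1 in 43.2% of wholly intronic strong peaks in replicate 1 (28.3 to 59.0%) and 44.7% in replicate 2 (36.9 to 52.7%), against 36.5% and 36.1% of wholly intronic peaks under 50 tags. In replicate 2, Mitf gave 14 and Ptprj 13 of the 72 summits in intron 1. The intervals treat peaks of 1 gene as separate, so no difference from the peaks under 50 tags is drawn from them. The median length of the intron at the summit was 26479 bases in replicate 1 and 39538 in replicate 2, against 24366 and 27112.

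Peaks mainly in the 3′ UTR were overlapped in 17 of 33 in replicate 1 (51.5%, 33.5 to 69.2%) and in 68 of 88 in replicate 2 (77.3%, 67.1 to 85.5%). The highest matched pairs had 98 and 120 tags in Spp1, 78 and 140 in Ctss, 83 and 115 in Ehbp1l1, 95 and 104 in Mfsd12, 69 and 99 in Tet3 and 87 and 87 in Ywhag. Tet3 encodes an enzyme that oxidises methylcytosine, and Ywhag a 14-3-3 protein. In the 5′ UTR the matched pairs with the most tags were Fth1 exon 2 (124 and 163), Lpl exon 1 (114 and 108) and BC005537 exon 1 (73 and 128). The Lpl exon 1 peak was 1 base shorter in replicate 2, and Lpl had 3 further strong peaks there, of 252, 217 and 191 tags, with no overlapping peak in replicate 1.

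Loci of ribosomal RNA and satellite repeats held a large part of the tags in few peaks. By a list of such loci that also holds Rn7sk and Neat1, 10 strong peaks in each library were counted. They carried 23.4% of the tags of strong peaks in replicate 1 and 11.0% in replicate 2. The highest strong peak of both libraries was AY036118 at the ribosomal RNA locus of chromosome 17, with 4702 and 5256 tags. That locus held 6 strong peaks in each library, all on the minus strand, with 5162 and 5670 tags. Gm10800 on chromosome 2 had 809 and 1067 tags, and Gm26870 on chromosome 9 had 381 and 525 antisense to the gene, 374 and 504 of them stacked. On the sense strand Gm26870 had 255 tags in replicate 1 and no peak in replicate 2. Such sequences occur in many copies, and how the authors placed reads that fit several copies is not given in the sources used here, so these counts are uncertain.

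Antisense and intergenic peaks were few. Antisense peaks were 11 (4.25%) and 8 (1.14%) of the strong peaks, against 4.26% and 4.42% under 50 tags, and 6 in each library were at Gm26870, Gm26917 or Gm42418. Intergenic peaks were 4 (1.54%) and 15 (2.15%), against 8.59% and 9.20%. Of these, 2 of 4 and 10 of 15 lay within a gene on the same strand in GENCODE release 21. Whether counting used the strand of the library is not given in the sources used here.

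GGAC was counted on the peak's strand in the 101 bases around the summit, for windows that lay wholly in 1 exon. GGAC was present in 30 of 71 windows of replicate 1, or 42.3% (30.6 to 54.6%), and in 75 of 187 of replicate 2, or 40.1% (33.0 to 47.5%), against 38.9% and 37.6% under 50 tags. In windows wholly in coding sequence it was 40.0% and 46.7%, against 42.8% and 42.3%. The intervals include the values of the other peaks, so a difference was not detectable with these numbers. In 201-base windows the shares were 62.5% and 60.7% in any exon, against 57.6% and 57.7%. Wholly in coding sequence they were 78.6% (49.2 to 95.3%, 14 windows) and 78.4% (61.8 to 90.2%, 37 windows), against 65.6% and 67.6%, values that these intervals also include. In the 101-base windows in any exon the median GC content was 55.4% in both libraries, against 52.5%.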

How the data were processed

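The data were RNA immunoprecipitation libraries of IGF2BP2 from mouse BMDMs, 2 with peak lists; the 2 input libraries were not analysed here. Bcl2fastq, TopHat2 and build GRCm38 are listed per the submitters' processing notes; which peak caller made the lists, and whether input entered, is not given in the sources used here. Each peak carries, as deposited by the authors, a raw tag count, a maximum height (a coverage signal in tags), a length, a summit, the share of each transcript region and a gene identifier. In the deposited lists Start and Summit count from 0: Start plus 1 was an annotated exon start in 3939 of 13452 sense peaks of replicate 1 and Start itself in 10. Positions here count from 1, and lengths are 1 base shorter than deposited.

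Genes, exons and sequences came from GENCODE release 21 (GRCm38), to which 10 gene identifiers of strong peaks did not match. Overlap of at least 1 base on the same strand was computed in Python 3.11.15 with pandas 2.3.3 and checked with bedtools 2.31.1; the script was tested on simulated peaks. Shares have exact binomial (Clopper-Pearson) 95% intervals from scipy 1.17.1. With 1 group of 2 libraries nothing was tested. Gene lists hold symbols by function. The members, lists and naming rule were chosen with earlier results of these data known.

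Named are, per region, the 6 strong peaks highest by mean rank in both libraries, the 8 strongest without an overlapping peak, the 8 highest and lowest tag ratios, genes with 4 or more strong peaks, extremes of length and stacking, up to 8 genes per list, Tsc1, Pparg and Igf2bp2. Other genes, and the sequences printed, were chosen after their values were seen. Alternatives were a threshold of 100 tags, equal numbers per library, ranking by height, loci left out, each library alone, and other rules for region and overlap. The sequence of 1 strong peak is not reported here.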

Additional observations from a re-analysis of the deposited data

How the results depend on the processing

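Values here pool both libraries. No paired analysis was possible because the input libraries were not analysed here and the results come from no test. Only 2 libraries limit the precision. The share mainly in coding sequence was 33.5%, in introns 47.0% and in the 3′ UTR 12.6%. A threshold of 100 tags gave 29.5% coding sequence, a median length of 909 bases against 667, a median height of 34.6% of tags against 44.4%, and 25 genes strong in both libraries against 96. Equal numbers of the strongest peaks per library gave 740.5 bases and 40.1%. Ranking by maximum height gave 47.8% coding sequence, 37.7% intron, 8.66% 3′ UTR, 332 bases and 66.7%. Peaks wholly in the region gave 12.2%, 21.9% and 5.64%, and a sense summit outside every exon, chosen after seeing the data, gave 22.4% for introns.

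The overlapped share, 75.6%, was 47.9% with at least 50% of both peaks, 69.9% with the summit inside, and 37.9% with a partner of 50 or more tags. With each library left out in turn, coding sequence ranged from 31.6 to 38.6%, introns from 39.8 to 49.6%, 3′ UTR from 12.6 to 12.7%, overlap from 75.3 to 76.4%, length from 620 to 679 bases and height from 43.7 to 48%. Summit windows of strong peaks wholly in 1 exon held GGAC in 61.1% of 157 with 100 bases on each side. With 50 bases on each side it was 40.7% of 258, so the windows are not the same set. Under 50 tags the wider window held GGAC in 57.6% in replicate 1 and 57.7% in replicate 2.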
